A study of Mus musculus with 8 samples.

Results

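The 10 genes of the circadian clock examined in mouse liver were Arntl, Clock, Npas2, Per1, Per2, Per3, Cry1, Nr1d1, Nr1d2 and Dbp. They were taken by gene symbol as a list of core clock components and a clock output regulator, are 10 of the 25229 genes in the count files, and all passed the filter on low counts. Bulk RNA sequencing covered isolated liver cells from 8 C57BL/6 animals, comprising 3 Adar1 flox/flox, 2 Adar1 wt/flox and 3 Adar1 wt/wt mice. The design text counts 2 flox/flox mice, but 3 samples carry that genotype and all were used. Every mouse was Ifih1-/- and Alb-Cre+, so the wt/wt controls also lacked Ifih1, which encodes MDA5, a cytosolic sensor of double-stranded RNA, and carried the recombinase, which the albumin promoter drives in hepatocytes. Adar (Adar1) encodes an RNA-editing enzyme, and the comparisons ask how liver RNA differs when 1 or both of its alleles are floxed in these mice. Replicate 1 of each genotype was 11 weeks old, replicate 2 was 9 weeks old, and replicate 3, which wt/flox lacks, was 7 weeks old. The hour at which each liver was taken is not given in the sources used here.

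The circadian clock of a cell is a transcriptional feedback loop. ARNTL (BMAL1) pairs with CLOCK or NPAS2, binds E-box sequences and switches on the Per, Cry, Nr1d and Dbp genes; PER and CRY proteins then block the activators, and the nuclear receptors NR1D1 and NR1D2 (REV-ERB) repress Arntl, Npas2 and Cry1 through ROR response elements (ROREs). DBP binds D-box sequences and drives daily rhythms of metabolic genes. In mouse liver most of these transcripts rise and fall over the day, those of Dbp, Nr1d1 and Per3 peaking in the light phase and that of Arntl around the opposite time, while Clock is nearly flat.

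The promoters of 5 of the genes are shown because they hold letters of the elements that clock proteins bind. The RefSeq windows on GRCm38.p6, which run from 250 bases before to 50 bases after a start, were matched for 9 of the 10 genes, all but Per2. Each sequence is written 5′ to 3′ on the gene's strand, and the capitals mark an E-box (CACGTG), an E-box-like element (CACGTT, read on the opposite strand here and so written AACGTG), a D-box (TTATGCAA or TTATGTAA) or a RORE (TAGGTCA or TGGGTCA).
Per1 promoter, chr11:69098699-69098998 (plus strand): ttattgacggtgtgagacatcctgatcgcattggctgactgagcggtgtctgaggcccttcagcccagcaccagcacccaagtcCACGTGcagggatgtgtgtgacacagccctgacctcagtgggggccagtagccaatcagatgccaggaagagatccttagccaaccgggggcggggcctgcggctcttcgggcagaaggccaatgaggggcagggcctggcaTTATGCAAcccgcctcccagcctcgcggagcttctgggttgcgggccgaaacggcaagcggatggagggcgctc
Per3 promoter, chr4:151044616-151044915 (minus strand): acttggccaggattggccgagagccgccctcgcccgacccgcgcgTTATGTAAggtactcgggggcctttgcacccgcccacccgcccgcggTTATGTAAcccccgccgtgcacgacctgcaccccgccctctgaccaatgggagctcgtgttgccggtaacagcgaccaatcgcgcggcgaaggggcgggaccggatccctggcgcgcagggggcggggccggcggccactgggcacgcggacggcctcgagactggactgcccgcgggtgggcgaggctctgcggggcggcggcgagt
Cry1 promoter, chr10:85185005-85185304 (minus strand): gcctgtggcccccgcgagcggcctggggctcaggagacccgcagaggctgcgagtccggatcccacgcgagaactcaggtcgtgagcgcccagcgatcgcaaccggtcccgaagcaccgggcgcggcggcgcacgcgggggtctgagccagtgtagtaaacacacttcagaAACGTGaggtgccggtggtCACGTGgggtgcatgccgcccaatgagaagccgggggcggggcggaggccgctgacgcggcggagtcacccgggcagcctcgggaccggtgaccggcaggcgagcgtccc
Nr1d1 promoter, chr11:98775328-98775627 (minus strand): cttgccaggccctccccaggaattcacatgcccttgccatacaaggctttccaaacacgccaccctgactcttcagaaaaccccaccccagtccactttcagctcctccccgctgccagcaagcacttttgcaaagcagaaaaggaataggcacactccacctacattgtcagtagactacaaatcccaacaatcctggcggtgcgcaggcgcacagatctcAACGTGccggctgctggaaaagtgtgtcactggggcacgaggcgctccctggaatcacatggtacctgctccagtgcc
Arntl promoter, chr7:113207261-113207560 (plus strand): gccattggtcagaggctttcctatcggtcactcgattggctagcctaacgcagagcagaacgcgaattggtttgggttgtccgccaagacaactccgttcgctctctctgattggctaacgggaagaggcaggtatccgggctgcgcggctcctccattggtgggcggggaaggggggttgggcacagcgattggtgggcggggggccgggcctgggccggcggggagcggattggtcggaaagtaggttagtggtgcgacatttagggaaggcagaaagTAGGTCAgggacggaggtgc
One of the 2 Per1 windows, the one printed, held an E-box that began 166 bases before the start and a D-box that began 24 bases before it. Per3 had 2 D-boxes, beginning 205 and 158 bases before the start. In Cry1 an E-box began 60 bases before the start and an E-box-like element 79 bases before it, and in Nr1d1 an E-box-like element began 28 bases before it. One of the 2 Arntl windows held a RORE, which began 30 bases after its start. Both strands of all 32851 RefSeq windows of 300 bases were searched in the same way: 7.15% held the E-box, 4.68% the E-box-like element, 1.66% the D-box and 6.45% the RORE. No clock gene window held the cAMP response element TGACGTCA, which 1.79% of all windows held. These matches are letters in short windows, and the elements that act on a gene can also lie elsewhere.

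The libraries held 75875711 to 132303735 reads assigned to the sense strand of genes, and values below are CPM, sense reads normalised to the TMM-adjusted library size. The TMM factors ran from 1.14 to 1.19 in wt/wt and from 0.855 to 0.996 in the other libraries. Adar was at 42.4 ± 6.74 CPM in flox/flox, 26.9 ± 6.93 CPM in wt/flox and 37.2 ± 14.2 CPM in wt/wt (SD, n = 3, 2 and 3). Its range was 35.9 to 49.4 CPM in flox/flox, above the 22.0 to 31.8 CPM of wt/flox, and the 28.1 to 53.6 CPM of wt/wt overlapped with both. Ifih1 had 0 to 4 reads in every library. The hepatocyte marker Alb was at 98247 to 171684 CPM in flox/flox, 86648 to 97621 CPM in wt/flox and 63587 to 79947 CPM in wt/wt. The library labelled flox/flox replicate 1, a female by its label, had 31 Xist reads and 21255 reads of Y-linked genes, and the library labelled flox/flox replicate 2, a male by its label, had 246646 Xist reads and 0 Y-linked reads. All wt/wt libraries lack the second-batch mark that the names of all other tables carry. Batch and genotype thus cannot be told apart in any contrast with wt/wt, whereas flox/flox and wt/flox share the mark. However, flox/flox and wt/flox are not matched for sex. By transcripts, both wt/flox libraries and flox/flox replicate 1 were male, and flox/flox replicates 2 and 3 were female. In wt/wt, replicates 1 and 2 were male and replicate 3 was female. Reads that aligned to several places made up 8.97% to 10.9% in wt/wt, against 3.92% to 4.32% in flox/flox and 4.89% to 4.98% in wt/flox. The replicates are separate samples per the labels, and p-values measure the spread between these samples. In bulk RNA, fewer cells of a type and less RNA per cell cannot be told apart.

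Arntl, Clock and Npas2 encode the activators of the loop, and Arntl and Npas2 were lowest in the flox/flox livers and in 1 of the wt/wt livers. Arntl (chromosome 7, 113207465 to 113314126, GRCm38) was at 17.1, 22.0 and 10.4 CPM in flox/flox replicates 1 to 3, at 23.1 and 30.1 CPM in wt/flox replicates 1 and 2, and at 10.6, 31.8 and 35.2 CPM in wt/wt replicates 1 to 3. All flox/flox values lay below both wt/flox values, but wt/wt replicate 1 fell among the flox/flox values, so these 2 groups overlapped. Against wt/wt, the fitted log2 fold change of Arntl in flox/flox was -0.65 (SE 0.44), which did not pass the test (edgeR adjusted p = 0.296).

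Npas2 (chromosome 1, 39193731 to 39363236), which can take the place of CLOCK, was at 1.27, 4.24 and 1.46 CPM in flox/flox, at 5.69 and 14.8 CPM in wt/flox, and at 1.18, 13.3 and 15.8 CPM in wt/wt, in the same replicate order. Every flox/flox library lay below both wt/flox libraries, and the lowest of all 8 values belonged to wt/wt replicate 1. The fitted log2 difference from wt/wt was -2.12 (SE 0.90, 95% interval -4.19 to -0.05), with an unadjusted p of 0.0462 and an edgeR adjusted p of 0.111. Against wt/flox it was -2.14 (SE 0.96, edgeR adjusted p = 0.558).

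Clock (chromosome 5, 76209868 to 76304792) was the steadiest of the 10 genes, at 109, 113 and 64.1 CPM in flox/flox, 116 and 130.2 CPM in wt/flox, and 91.8, 101 and 82.1 CPM in wt/wt. Both wt/flox values were the highest of the series, and the flox/flox and wt/wt ranges overlapped. The log2 fold change of flox/flox against wt/wt was 0.06 (SE 0.21, 95% interval -0.43 to 0.55, edgeR adjusted p = 0.852). For wt/flox against wt/wt it was 0.43 (SE 0.24, edgeR adjusted p = 0.248).

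The repressors Per1, Per2, Per3 and Cry1 did not share 1 order of libraries. Per3 (chromosome 4, 151003652 to 151044665) was at 8.62, 16.5 and 57.2 CPM in flox/flox, 3.39 and 3.14 CPM in wt/flox, and 12.8, 1.65 and 1.52 CPM in wt/wt. All flox/flox livers were above both wt/flox livers, and wt/wt replicate 1 stood within the flox/flox range while the other wt/wt livers were the lowest of all. Relative to wt/wt, the fitted log2 fold change in flox/flox was 2.37 (SE 0.98, 95% interval 0.10 to 4.63), with an unadjusted p of 0.0426 and an edgeR adjusted p of 0.105. Against wt/flox it was 3.07 (SE 1.20), with an unadjusted p of 0.0335 and an edgeR adjusted p of 0.558.

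Cry1 (chromosome 10, 85131700 to 85185064), the repressor that acts late in the cycle, was at 7.78, 17.3 and 4.94 CPM in flox/flox, 18.3 and 27.8 CPM in wt/flox, and 6.90, 25.3 and 17.3 CPM in wt/wt. Its lowest 3 libraries were flox/flox replicates 3 and 1 and wt/wt replicate 1, and flox/flox did not overlap with wt/flox. The log2 fold change was -0.72 (SE 0.56, edgeR adjusted p = 0.356) against wt/wt and -1.20 (SE 0.61, edgeR adjusted p = 0.559) against wt/flox.

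Per1 (chromosome 11, 69095217 to 69109960), which hormones and other acute signals also induce, was at 45.6, 10.9 and 23.6 CPM in flox/flox, 28.9 and 18.2 CPM in wt/flox, and 8.39, 5.39 and 27.1 CPM in wt/wt. The highest libraries were flox/flox replicate 1, wt/flox replicate 1 and wt/wt replicate 3, 1 of each genotype, and all groups overlapped. Relative to wt/wt, its log2 fold change in flox/flox was 0.97 (SE 0.68, edgeR adjusted p = 0.310). Per2 (chromosome 1, 91415982 to 91459324) was at 10.7, 25.5 and 21.3 CPM in flox/flox, 7.56 and 22.7 CPM in wt/flox, and 17.7, 14.9 and 7.68 CPM in wt/wt. Here, too, the groups overlapped, and flox/flox replicate 1, which was highest for Per1, was among the 3 lowest libraries for Per2. The log2 fold change of Per2 was 0.52 (SE 0.49, edgeR adjusted p = 0.452).

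The REV-ERB genes were high in flox/flox and in wt/wt replicate 1. Nr1d2 was the 1 clock gene whose flox/flox and wt/wt livers did not overlap in CPM, as was so for 45% of all tested genes. Nr1d1 (chromosome 11, 98767932 to 98775333) was at 66.8, 56.1 and 115 CPM in flox/flox, 47.3 and 19.4 CPM in wt/flox, and 117, 13.0 and 18.3 CPM in wt/wt. All flox/flox values were above both wt/flox values, but the highest of all was wt/wt replicate 1. The log2 fold change of Nr1d1 was 0.69 (SE 0.80, edgeR adjusted p = 0.545) against wt/wt and 1.25 (SE 0.93, edgeR adjusted p = 0.631) against wt/flox.

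Nr1d2 (chromosome 14, 18204054 to 18239127) was at 78.2, 76.4 and 122 CPM in flox/flox, 81.7 and 39.0 CPM in wt/flox, and 75.3, 16.7 and 23.2 CPM in wt/wt. The gap between the lowest flox/flox and the highest wt/wt liver was narrow, and wt/flox replicate 1 lay within the flox/flox range. The gap also rests on the TMM scaling. Flox/flox replicate 1 had 7042 sense reads of Nr1d2 in a library of 98337152. That is fewer than the 7422 of wt/wt replicate 1 in a smaller library of 82967317. The log2 fold change against wt/wt was 1.26 (SE 0.57, 95% interval -0.05 to 2.57), which did not pass with edgeR (adjusted p = 0.129) and passed with DESeq2 (log2 fold change 1.25, adjusted p = 0.0370).

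Dbp (chromosome 7, 45705088 to 45710203), the D-box activator and output regulator, varied most. It was at 9.93, 6.95 and 50.5 CPM in flox/flox, 3.67 and 0.710 CPM in wt/flox, and 28.4, 0.617 and 0.365 CPM in wt/wt. The sense reads behind these values were 894, 778 and 6661 in flox/flox, 314 and 50 in wt/flox, and 2799, 73 and 40 in wt/wt. Both extremes of the wt/wt group thus bracketed most of the other livers, with a 77.8-fold range within wt/wt alone, 7.27-fold within flox/flox and 138-fold over all 8 libraries. Relative to wt/wt, the fitted log2 fold change in flox/flox was 1.20 (SE 1.53, 95% interval -2.34 to 4.75, edgeR adjusted p = 0.580). For flox/flox against wt/flox, whose values did not overlap, it was 3.35 (SE 1.98, 95% interval -1.22 to 7.92, edgeR adjusted p = 0.581).

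**Figure D1:**
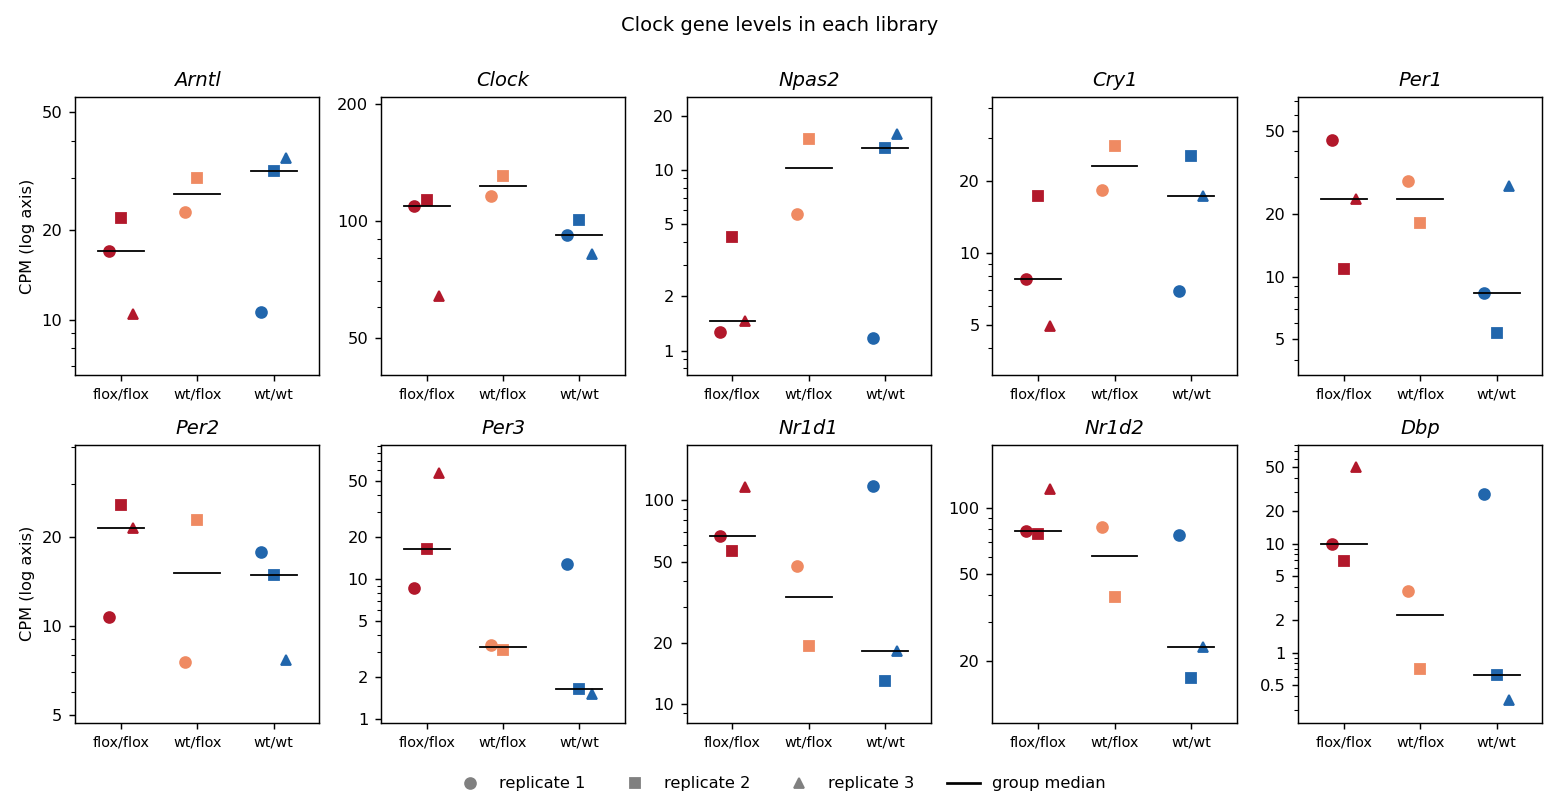
CPM (log axis) of each of the 10 clock genes in every library, with flox/flox left, wt/flox in the middle and wt/wt right; each point is a library, its shape gives the replicate number, and the line is the group median. In the Dbp panel the wt/wt points run from 0.365 to 28.4 CPM and span the flox/flox values of 6.95 and 9.93 CPM, and in the Clock panel all 8 points lie between 64.1 and 130.2 CPM.

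Per kilobase of exon, the median level over the 8 libraries was 16.8 CPM for Nr1d1, 14.0 for Nr1d2, 7.63 for Clock, 5.18 for Cry1, 3.71 for Per1, 3.00 for Arntl, 2.78 for Per2, 1.78 for Dbp, 1.04 for Npas2 and 0.625 for Per3. The order differed between the genotypes. In flox/flox the median per kilobase was 21.7 CPM for Nr1d1, 14.5 for Nr1d2 and 7.94 for Clock. In wt/flox it was 11.2 for Nr1d2, 10.8 for Nr1d1 and 8.96 for Clock, and in wt/wt 6.69 for Clock, 5.94 for Nr1d1, 5.17 for Cry1 and 4.29 for Nr1d2. These orders are of medians, and neighbours in them were not tested against each other.

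None of the 10 genes passed the edgeR test in flox/flox against wt/wt, while 29.9% of all 14728 tested genes did (2231 rose, 15.1%, and 2169 fell, 14.7%). At an unadjusted p under 0.05 the edgeR count was 2 of 10, Npas2 and Per3, against 42.5% of all genes. DESeq2 called 1 gene, Nr1d2, against 35.6% of all genes, and limma-voom called 0, against 30.3%. Groups did not overlap for 1 of the 10 genes, Nr1d2, against a background of 45% of tested genes. The median log2 fold change was 0.60 over the 10 genes and 0.02 over all tested genes.

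In flox/flox against wt/flox, which share the batch mark, 0 clock genes and 0% of all genes passed with edgeR; at an unadjusted p under 0.05 there were 1 clock gene, Per3, and 1240 genes in all (8.42%). DESeq2 called 0 clock genes and 73 genes in all (0.497%), and limma-voom called 0 of either. Sex and age are not balanced in this contrast. Both wt/flox mice were male by transcripts, flox/flox replicates 2 and 3 were female, and wt/flox had no mouse of 7 weeks. The libraries of these genotypes did not overlap for 7 of the 10 clock genes, against 27.3% of all tested genes: Arntl, Clock, Npas2 and Cry1 were lower in every flox/flox liver, and Per3, Nr1d1 and Dbp were higher in every flox/flox liver. In wt/flox against wt/wt, 12.5% of all genes passed with edgeR and 0 clock genes did, with 0 at an unadjusted p under 0.05 and 0 by DESeq2 or limma-voom. Over all genes those shares were 31.7% at an unadjusted p under 0.05, 22.4% by DESeq2 and 11.2% by limma-voom. Clock alone did not overlap there, against 55.1% of all tested genes, and the clock genes' log2 fold changes ran from -2.15 for Dbp (SE 1.87) to 0.79 for Per1 (SE 0.74). Each contrast shares its libraries with another, so the contrasts are not independent of each other.

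**Figure D2:**
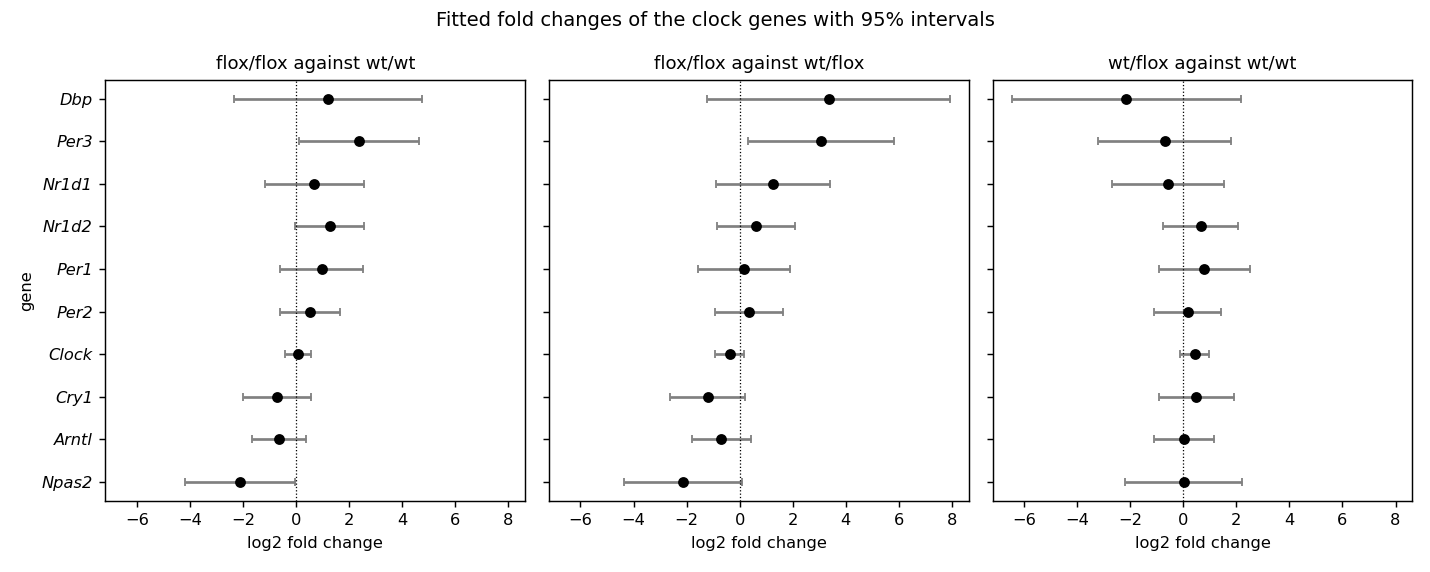
Fitted log2 fold change (horizontal axis) of each clock gene in the 3 contrasts, a panel each; points are edgeR estimates and bars their 95% intervals. The interval of Dbp, from -2.34 to 4.75 for flox/flox against wt/wt, is far wider than that of Clock, from -0.43 to 0.55.

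The outcome against wt/wt changed most without wt/wt replicate 1. The tested values themselves single out that library, which had the highest Nr1d1 and the lowest Npas2 of the series. Without that library, 5 of the 10 clock genes passed the edgeR test, against 19.1% of all 14660 genes tested then. Leaving it out narrowed the wt/wt spread of the genes then called. These genes also varied together between livers, so their calls are not independent of each other. Whether clock genes pass more often than other genes thus cannot be read from these shares. Per3 rose (log2 fold change 4.11, adjusted p = 0.0203), as did Nr1d1 (2.34, adjusted p = 0.0211), Nr1d2 (2.20, adjusted p = 0.0149) and Dbp (5.51, adjusted p = 0.0276), and Npas2 fell (-2.65, adjusted p = 0.0269). Without wt/wt replicate 3, 1 gene passed, Per1 (log2 fold change 1.95, edgeR adjusted p = 0.0473), against 26.7% of all 14561 genes tested then. Without flox/flox replicate 3 no clock gene passed with edgeR, and the fold change of Dbp turned to -0.21 on the log2 scale.

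**Figure D3:**
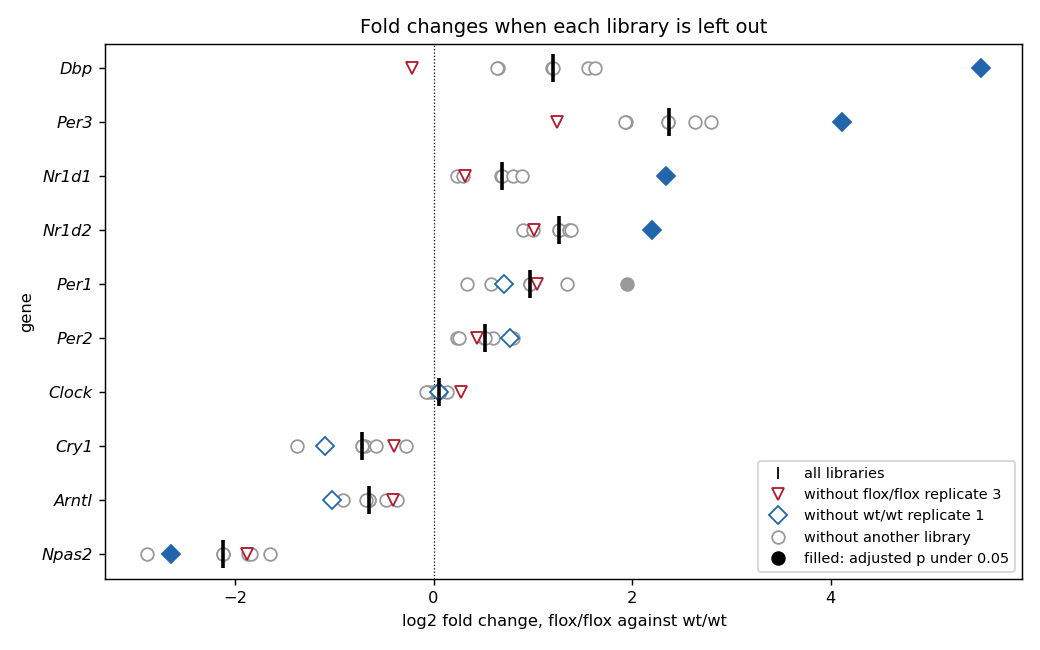
Log2 fold change of each clock gene for flox/flox against wt/wt with all libraries and with each of the 8 libraries left out; a filled marker has an edgeR adjusted p under 0.05. Dbp moves between -0.21 and 5.51, 5 genes are filled without wt/wt replicate 1 (diamonds), and Per1 is filled without wt/wt replicate 3 (grey).

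The spread between livers of 1 genotype was large for all clock genes but Clock. The pooled within-genotype SD of log2 CPM was 2.47 for Dbp, 1.51 for Npas2, 1.41 for Per3, 1.20 for Nr1d1, 1.02 for Per1, 0.86 for Cry1, 0.83 for Nr1d2, 0.77 for Per2, 0.71 for Arntl and 0.31 for Clock, against a median of 0.26 over all tested genes. Dbp had a larger spread than 99.5% of tested genes and Npas2 than 98.4%, while Clock was near the middle at 57.0%; 6 of the 10 genes were above the 90th percentile and 4 above the 95th. Differences between genotypes made up 56.9% of the sum of squares of log2 CPM for Per3, 50.9% for Nr1d2 and 13.2% for Per2. For 9 of the 10 genes this share was below the median of all tested genes, 54.6%, the exception being Per3.

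**Figure D4:**
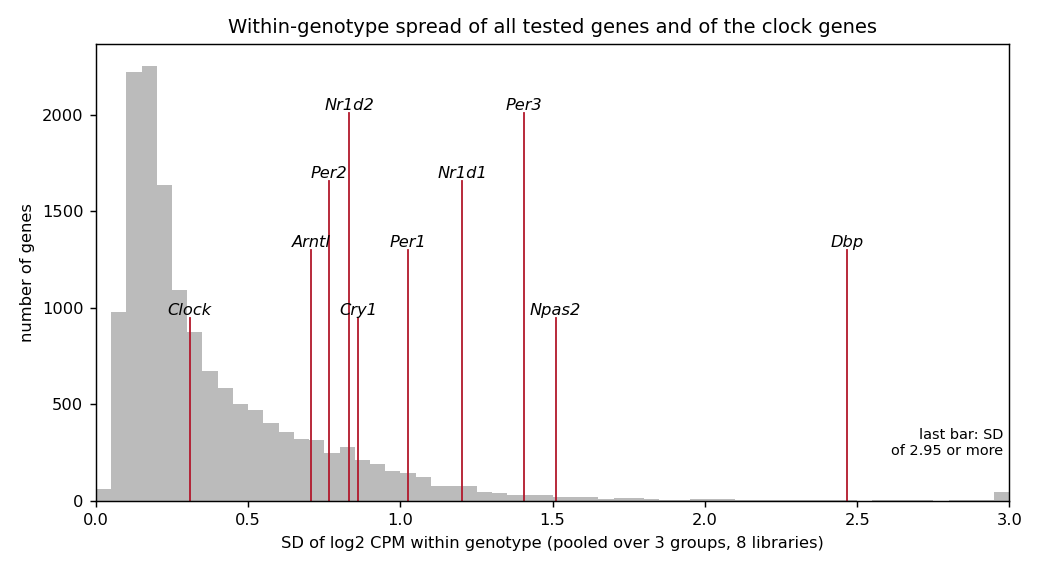
Number of tested genes (vertical axis) by the SD of log2 CPM within genotype (horizontal axis), with a labelled red line for each clock gene. The last bar also holds the 41 genes with an SD above 3; Dbp lies far right at 2.47 and Clock at 0.31, near the median gene at 0.26.

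Dbp, Per3, Nr1d1, Arntl and Npas2 split the livers in the same way, and Per1, Per2 and Clock did not. The 4 highest libraries for Dbp, Per3 and Nr1d1 were the 3 flox/flox libraries and wt/wt replicate 1, and the same 4 libraries were the lowest for Arntl and Npas2. This set of 4 libraries was picked from these same values. How many of all tested genes split the libraries in this way was not counted. For Nr1d2, 3 of these 4 were among the 4 highest, and for Cry1, 3 of them were among the 4 lowest. Flox/flox replicate 3 had the highest Dbp, Per3 and Nr1d2 and the lowest Arntl, Cry1 and Clock of the series. Wt/wt replicates 2 and 3 had the highest Arntl and the lowest Dbp, Per3, Nr1d1 and Nr1d2. The ratio of Dbp to Arntl sets 2 of these genes against each other. Its log2 value, from CPM with no correction for length, was -0.78, -1.66 and 2.28 in flox/flox, -2.65 and -5.41 in wt/flox, and 1.42, -5.69 and -6.59 in wt/wt. Flox/flox replicate 3 and wt/wt replicate 1 were alone in having a log2 ratio above 0, and the wt/wt group held both the second highest and the lowest ratio. The log2 ratio of Per3 to Npas2 was above 0 in flox/flox (2.77, 1.96 and 5.29) and in wt/wt replicate 1 (3.44), and below 0 in wt/flox (-0.74 and -2.23) and the other wt/wt livers (-3.01 and -3.38).

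**Figure D5:**
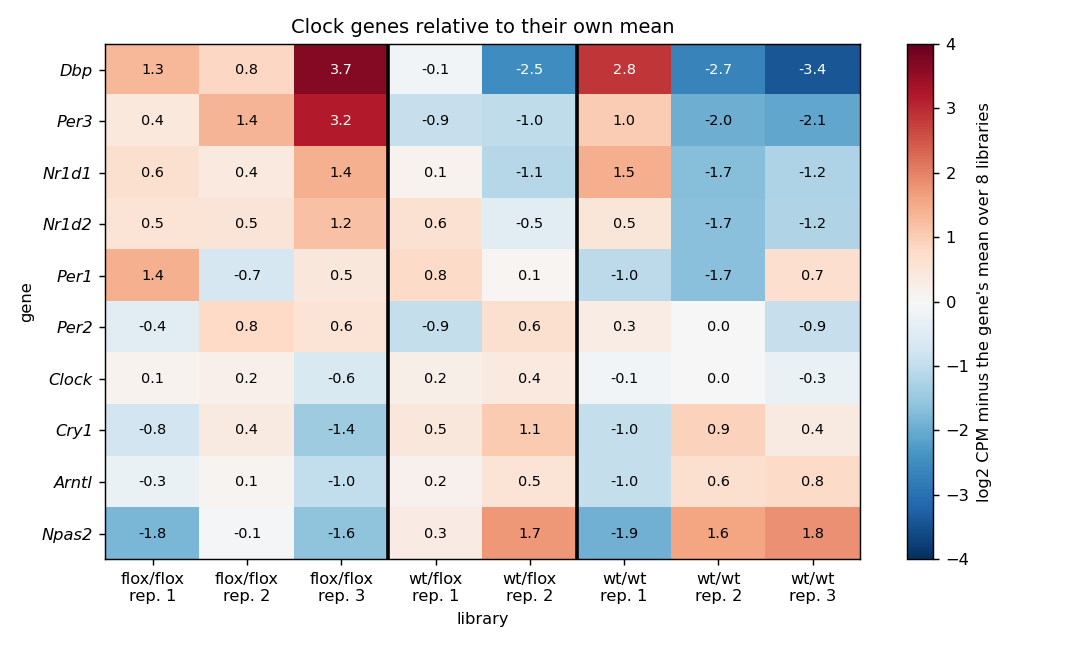
Log2 CPM of each clock gene minus that gene's mean over the 8 libraries, by library, with the flox/flox libraries first and the wt/wt libraries last. Flox/flox replicate 3 and wt/wt replicate 1 are high for Dbp, Per3 and Nr1d1 and low for Arntl, Npas2 and Cry1, and wt/wt replicates 2 and 3 are the reverse.

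Among 11200 genes with a mean of at least 1 CPM, the likeness of patterns was measured as the root mean square difference between log2 CPM values centred on each gene's mean, over the 8 libraries. The 5 genes most like Dbp were Per3 (1.10), Nr1d1 (1.37), Tef (1.62), Nr1d2 (1.69) and 1110028F11Rik (1.80), against a median of 2.49 over the genes compared. Of these 5, 4 are clock components or regulators by the lists used here. Among those most like Arntl were Chka (0.28), choline kinase alpha, Skil (0.31), a SMAD repressor, Chordc1 (0.32), an HSP90 partner, and Mical2 (0.33), an actin-oxidising enzyme, against a median of 0.71. Chka was at 55.4, 78.4 and 46.7 CPM in flox/flox, 87.0 and 135 CPM in wt/flox, and 39.4, 104 and 82.2 CPM in wt/wt. Its lowest libraries were wt/wt replicate 1 and flox/flox replicate 3, which were also the lowest for Arntl.

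Of 18 other clock regulators tested, 0 rose and 1 fell in flox/flox against wt/wt, where 15.1% of all tested genes rose and 14.7% fell. In that contrast 4 of the 18 had an unadjusted p under 0.05 with edgeR, against 42.5% of all genes. The median log2 fold change was 0.27 over the 18 and 0.02 over all tested genes. The gene that fell was Nfil3, a repressor that competes with DBP for D-boxes: it was at 23.7, 26.4 and 15.7 CPM in flox/flox, 39.8 and 37.6 CPM in wt/flox, and 28.4, 49.8 and 59.2 CPM in wt/wt. The flox/flox livers were the lowest 3 of the series and wt/wt replicate 1 was the next. The log2 fold change was -1.06 (SE 0.29, edgeR adjusted p = 0.0276), and the call was lost without wt/wt replicate 2 (adjusted p = 0.0858), wt/wt replicate 3 (0.0682) or flox/flox replicate 3 (0.0723). Without both libraries whose transcripts contradict the labelled sex, which leaves flox/flox replicate 3 alone in its group, the log2 fold change was -1.54. The list's count was 2 without wt/wt replicate 1, when Tef also passed, and also 2 without flox/flox replicate 1, when Csnk1d also fell.

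Tef, which encodes a D-box activator of the same family as DBP, was at 72.3, 61.9 and 111 CPM in flox/flox, 58.9 and 30.4 CPM in wt/flox, and 63.6, 20.6 and 15.0 CPM in wt/wt. Its 4 highest libraries were the same as those of Dbp, and its log2 fold change of 1.31 against wt/wt did not pass (edgeR adjusted p = 0.108). Hlf, the remaining member of that family, stayed between 26.2 and 37.7 CPM in all 8 libraries, with a log2 fold change of -0.13 (edgeR adjusted p = 0.546). Tef and Hlf were picked with their values already known. In flox/flox against wt/flox none of the 18 passed, nor did any other gene with edgeR. The smallest p-values belonged to Rora, a RORE activator (log2 fold change -0.66), and Timeless (0.65), each with an edgeR adjusted p of 0.558. Of the 18, 4 had an unadjusted p under 0.05 with edgeR, against 8.42% of all genes, and DESeq2 and limma-voom called 0. None passed in wt/flox against wt/wt either, where 12.5% of all genes did. There, 2 of the 18 had an unadjusted p under 0.05 (31.7% of all genes), DESeq2 called 1 (22.4%) and limma-voom 0 (11.2%). Gsk3b, a kinase of clock proteins, had a log2 fold change of 0.33 in that contrast (edgeR adjusted p = 0.129).

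Of 20 genes known as rhythmic in liver, 0 rose and 1 fell in flox/flox against wt/wt (15.1% and 14.7% of all tested genes). The median log2 fold change of the 20 was 0.13. Tars, a threonyl-tRNA synthetase gene, fell: it was at 124, 111 and 82.7 CPM in flox/flox, 140.5 and 146 CPM in wt/flox, and 154, 202 and 180.1 CPM in wt/wt. All flox/flox values lay below all others, the log2 fold change was -0.75 (SE 0.17, edgeR adjusted p = 0.0159), and the call was lost without wt/wt replicate 2 (log2 fold change -0.66, edgeR adjusted p = 0.0623). In flox/flox against wt/flox and in wt/flox against wt/wt, 0 of the 20 passed with edgeR, DESeq2 or limma-voom, and 0 had an unadjusted p under 0.05 with edgeR. Of all tested genes, 0% and 12.5% passed with edgeR in these contrasts, and 8.42% and 31.7% had such an unadjusted p. Against wt/wt, 3 of the 20 passed without wt/wt replicate 3 (26.7% of all genes), where Por and Mfsd2a rose and Tars fell. Without flox/flox replicate 1, 3 passed as well, and Elovl3, Tsku and Tars fell. That fit leaves only flox/flox libraries that are female by transcripts. Elovl3 was at 262, 0.858 and 0.979 CPM in flox/flox, 561 and 518 CPM in wt/flox, and 183, 672 and 1.91 CPM in wt/wt. The low values belong to flox/flox replicates 2 and 3 and wt/wt replicate 3, the libraries female by transcripts. The part of sex in the fall of Elovl3 was not tested.

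The 12 genes induced by glucocorticoids or sensitive to temperature were included because such cues act on Per1 and Per2, and 0 passed with edgeR in any contrast with genotype as the sole term and all libraries (0, 1 and 0 at an unadjusted p under 0.05 in flox/flox against wt/wt, flox/flox against wt/flox and wt/flox against wt/wt), nor with DESeq2 or limma-voom. Of all tested genes, 29.9%, 0% and 12.5% passed with edgeR in these contrasts. The shares at an unadjusted p under 0.05 were 42.5%, 8.42% and 31.7%. Without wt/wt replicate 1, Rbm3, a cold-induced gene, passed against wt/wt. Leaving out both libraries of contradicted sex leaves flox/flox replicate 3 alone in its group. The log2 fold change against wt/wt was then -2.56 for Hsph1 and -1.38 for Hsp90aa1. Hsph1 was at 8.27 CPM in that library, against 28.9 and 34.4 CPM in flox/flox replicates 1 and 2. With all libraries, those of the 12 genes with the smallest p-values against wt/wt were Hsph1 (log2 fold change -1.03, edgeR adjusted p = 0.153) and Hsp90aa1 (-0.57, edgeR adjusted p = 0.167). The 3 libraries highest for Per1 were also the 3 highest for Fkbp5, Tsc22d3 and Zbtb16, targets of the glucocorticoid receptor that were picked with their values already known. Fkbp5 was at 156, 43.2 and 29.5 CPM in flox/flox, 72.9 and 14.8 CPM in wt/flox, and 20.2, 16.2 and 95.2 CPM in wt/wt. As with Per1, 1 library of each genotype stood high. Sgk1, another glucocorticoid-induced gene of the list, did not follow Per1: it was at 27.1, 16.4 and 13.3 CPM in flox/flox, 45.8 and 23.3 CPM in wt/flox, and 12.8, 33.1 and 19.0 CPM in wt/wt.

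Of 12 immediate-early genes that tissue dissociation can induce, 1 rose and 0 fell in flox/flox against wt/wt, where 15.1% of all tested genes rose and 14.7% fell. Dusp1, a MAP kinase phosphatase gene, was at 109.5, 102 and 109 CPM in flox/flox, 80.1 and 88.1 CPM in wt/flox, and 89.9, 65.0 and 62.3 CPM in wt/wt. All flox/flox values were above all others, with a log2 fold change of 0.56 (SE 0.15, edgeR adjusted p = 0.0284). The call was lost in 5 of the 6 fits that left out a library of these groups, all but that without wt/wt replicate 1, with log2 fold changes of 0.46 to 0.59 and edgeR adjusted p-values of 0.0519 to 0.104. Without both libraries of contradicted sex, which leaves flox/flox replicate 3 alone in its group, the log2 fold change was 0.59. The summed level of the 12 genes was 558 to 835 CPM in flox/flox, 565 to 605 CPM in wt/flox and 407 to 792 CPM in wt/wt, and its part in the Per1 and Per2 values was not tested.

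Markers of other liver cells also differed between flox/flox and wt/wt, which the batch mark separates as well. Of 12 sinusoidal endothelial markers, 8 fell and 0 rose in flox/flox against wt/wt, where 15.1% of all genes rose and 14.7% fell. The number that fell was 5 without flox/flox replicate 1, 2 without flox/flox replicate 2, 5 without wt/wt replicate 1 and 4 without wt/wt replicate 3. The summed level of the endothelial markers was 78.0 to 165 CPM in flox/flox, 89.5 to 98.9 CPM in wt/flox and 186 to 294 CPM in wt/wt. Of 12 Kupffer cell markers 0 were called with edgeR (2 at an unadjusted p under 0.05, 2 by DESeq2, 0 by limma-voom), while 0 of the 12 had a higher fitted level and the median log2 fold change was -1.13. Of all genes, 42.5% had such an unadjusted p, DESeq2 called 35.6% and limma-voom 30.3%. With labelled sex as a term 8 of the 12 fell, and with sex by transcripts 2 fell. These fits called 3656 and 4282 of all 14728 genes. The Kupffer cell markers summed to 38.5 to 132 CPM in flox/flox, 38.6 to 40.6 CPM in wt/flox and 69.6 to 290.5 CPM in wt/wt. The summed hepatocyte markers, of which 2 of 10 rose and 0 fell (1 rose without wt/wt replicate 1 or 2; 4 rose and 1 fell without flox/flox replicate 1; DESeq2, limma-voom and the filter at 1 CPM on average each called 5, all of which rose), were at 162950 to 238838 CPM in flox/flox, 153270 to 171019 CPM in wt/flox and 100337 to 117774 CPM in wt/wt. Every marker of these 3 lists had reads in every group. In flox/flox against wt/flox, which share the batch mark, 0 of these markers passed with edgeR, as did 0% of all genes. There, all 12 Kupffer cell markers had a higher fitted level, with a median log2 fold change of 0.91. In wt/flox against wt/wt, 8 endothelial and 0 Kupffer cell markers fell and 3 hepatocyte markers rose, where 12.5% of all genes passed with edgeR.

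Of 5 cholangiocyte markers tested, Pkhd1 rose and Sox9 fell in flox/flox against wt/wt, where 15.1% of all genes rose and 14.7% fell. Sox9 was not called when replicate 1 or 2 of wt/wt was left out, nor when replicate 2 or 3 of flox/flox was. The cholangiocyte list summed to 66.5 to 125 CPM in flox/flox, 39.2 to 72.6 CPM in wt/flox and 41.0 to 46.3 CPM in wt/wt. Of 8 stellate cell markers 0 were called with edgeR and 2 had an unadjusted p under 0.05, against 29.9% and 42.5% of all genes. DESeq2 and limma-voom each called 1, Reln, which rose, against 35.6% and 30.3% of all genes. Without flox/flox replicate 3, 4 fell, as did 1727 of all 14536 genes tested then. The stellate cell markers summed to 39.4 to 78.3 CPM in flox/flox, 29.8 to 40.3 CPM in wt/flox and 29.0 to 62.2 CPM in wt/wt. Of 7 lymphocyte and neutrophil markers tested, 1 fell, S100a9, with 0 called by DESeq2 or limma-voom. The call of S100a9 stayed without wt/wt replicate 1 or 2 and was lost without any other 1 library. That list summed to 0.375 to 1.12 CPM in flox/flox, 0.316 to 0.440 CPM in wt/flox and 0.670 to 8.87 CPM in wt/wt, and 1 of its 9 markers was at 0 reads in wt/flox. The part of cell makeup in the clock gene values was not tested.

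Reads on the opposite strand were counted separately. Over all libraries they made up 16.4% of the reads of Per2 (13.2% to 20.4% by library), 15.6% of those of Dbp and 10.5% of those of Nr1d1, against a median of 6.94% over the tested genes. An antisense transcript of Per2 is known in mouse liver. Dbp shares 539 exon bases with Sphk2 and Nr1d1 shares 263 with Thra, both on the opposite strand in GENCODE M21. In the livers with least Dbp its opposite-strand reads matched or outnumbered the sense reads: 50 against 50 in wt/flox replicate 2, 126 against 73 in wt/wt replicate 2, and 79 against 40 in wt/wt replicate 3. How many of the few sense reads in these livers came from Dbp itself was not tested. Per3 lies within the span of Camta1 on the same strand, with 0 exon bases shared.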

How the data were processed

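Liver cells were isolated by collagenase perfusion and a Percoll gradient, and strand-specific libraries were made after depletion of ribosomal RNA, per the labels' protocols. Each deposited table gives the authors' raw counts of reads by gene symbol, separately for the sense and antisense strands, per its header. The submitters' processing notes name GRCm38 (mm10) and DESeq2; no aligner, counting program or annotation is named in the sources used here. The 5 rows of each file that name no gene were left out of library sizes; of the sense reads, 22.2% to 40.0% lay in no gene and 0.317% to 0.668% were ambiguous. Symbols were matched to GENCODE M21 for positions and exon length, 24321 of 25229 to a single gene.

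Sense counts were tested with edgeR 4.0.16 in R 4.3.3 (quasi-likelihood F test). Library sizes were scaled by TMM, filterByExpr left 14728 genes, and two-sided p-values were adjusted over all of these by Benjamini-Hochberg, with calls at 0.05. All 8 libraries entered 1 fit with genotype as the sole term, since transcripts of 2 libraries contradict the labelled sex. The SE is that of the log2 fold change, and intervals are at 95%. Within-genotype SDs are of log2 CPM with a prior count of 2. Each pair of replicates differed by more than sampling noise. Same-numbered libraries of flox/flox and wt/wt share an age, and their deviations correlated at 0.29, 0.02 and 0.45 for replicates 1 to 3. Differently numbered libraries of these groups correlated at -0.48 to 0.34. The main fit did not take the numbers to pair the mice. Alternatives were DESeq2 1.42.0, limma-voom (limma 3.58.1), scaling by RLE or the upper quartile, dropping the filter or asking for 1 CPM on average, adding antisense to sense reads, labelled sex or sex by transcripts as a term, a replicate block alone or together with sex by transcripts, only the groups compared, leaving out both libraries of contradicted sex, and leaving out each library. Leaving out both libraries of contradicted sex leaves flox/flox replicate 3 alone in its group. The edgeR test of flox/flox against wt/wt was also run on simulated counts, separately from the fits reported here.

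The clock genes, the other lists, the tests and the alternatives were chosen with earlier results of these data known. All 10 clock genes are named; of each other list, up to 4 called members with the smallest p, otherwise the 2 with the smallest p, and the 5 genes most like Dbp and most like Arntl. Some genes that this rule names are not reported here.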

Additional observations from a re-analysis of the deposited data

Results flagged for a closer look

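Opposite-strand reads of Nr1d2, which the comparisons do not use, were higher in CPM in every flox/flox library than in any wt/wt library. They were at 2.52 to 3.92 CPM in flox/flox, 1.84 and 1.43 CPM in wt/flox, and 0.871 to 2.36 CPM in wt/wt. The batch mark also separates flox/flox from wt/wt, as do the TMM factors, and the gap in CPM rests on that scaling. Before scaling, flox/flox replicate 1 had 227 of these reads and wt/wt replicate 1 had 233 in a smaller library. For how many of all genes the opposite-strand reads separate flox/flox from wt/wt was not counted. Opposite-strand reads made up 3.18% of the reads of Nr1d2 over all libraries, below the median of 6.94% for all tested genes. The sense CPM of Nr1d2 did not overlap between flox/flox and wt/wt either, as was so for 45% of all tested genes. That gap also rests on the scaling.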

How the results depend on the processing

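Over 21 alternatives, 621 of the 630 values of the 10 clock genes kept their side of the threshold, an uncalled value that stayed uncalled being counted as not changed. The other 9 became called, and 34 uncalled values changed sign. In flox/flox against wt/wt, where 0 clock genes were called, DESeq2 and the replicate block each called 1, Nr1d2 (the block with a log2 fold change of 1.56, edgeR adjusted p = 0.0469), and leaving out 1 library gave 0 to 5. Of all genes, 4400 were called; the replicate block with sex by transcripts gave 1786, leaving out both libraries of contradicted sex 2915, and leaving out 1 library 2195 to 4722. In flox/flox against wt/flox, where 0 genes were called, DESeq2 called 73, and leaving out 1 library gave 0 to 0. In wt/flox against wt/wt, 1837 genes were called, DESeq2 gave 3295, the replicate block with sex by transcripts 0, and leaving out 1 library 0 to 2525. There, labelled sex as a term called 1 clock gene, Per1 (log2 fold change 1.72, edgeR adjusted p = 0.0382), and leaving out 1 library gave 0 to 0. The cause of these changes was not tested. Of the 18 other clock regulators, 1 was called in flox/flox against wt/wt, and DESeq2 and the replicate block each called 4. Of all genes, DESeq2 called 35.6% there and the replicate block 4794 of 14728. The replicate block called 2 of the 12 glucocorticoid and temperature genes, Hspa1a and Hspa1b, near-identical copies whose counts are uncertain, which fell, in both contrasts with wt/wt, and 7 Kupffer cell markers, which fell, in flox/flox against wt/wt. There, the block with sex by transcripts called the same 2 heat-shock genes and 4 Kupffer cell markers, and the calls of Tars (log2 fold change -0.73, edgeR adjusted p = 0.0780), Nfil3 (-1.16, adjusted p = 0.0960) and Dusp1 (0.60, adjusted p = 0.0942) were lost. The replicate block alone called 4794, 0 and 1439 of all genes in the 3 contrasts, in the order above. With 2 or 3 livers a group, intervals of the clock genes were wide. Dbp had 40 to 73 sense reads in some livers, and the part of counting noise in its spread was not tested.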
